A study of Mus musculus with 5 samples.

Results

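The insulin-like growth factor (IGF) genes measured here were 2 ligands (Igf1 and Igf2), the signalling receptor (Igf1r), 6 binding proteins (Igfbp2 to Igfbp7) and the receptor adaptor Grb10. They were taken by symbol: every probe set whose single gene symbol in the platform annotation was one of these names was used. The 10 genes had 29 probe sets, of 18194 genes and 45101 probe sets on the array. RNA of cultured cells labelled as aortic endothelial cells from C57BL/6J mice was hybridised to 5 one-colour arrays. By title, 2 arrays were TNF-LTBR and 3 were control, all at 24 h. TNF is an inflammatory cytokine and LTBR is the lymphotoxin beta receptor, and the series title concerns their combined NF-kB signalling. Every culture carried the same growth medium with 20% serum, heparin and endothelial growth supplement, and the treatment text of all 5 arrays names only PBS, so TNF-LTBR is known as a group from the titles alone. Which agonists were used, and at what dose, no label says. The labels also do not tell whether replicate arrays were separate cultures or animals, and p-values therefore reflect the spread among these 5 arrays, which may be technical.

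IGF1 and IGF2 are secreted growth factors that bind the IGF1 receptor, a tyrosine kinase whose substrates feed the PI3K-AKT and MAP kinase pathways. The binding proteins hold the ligands outside the cell and so limit or prolong their access to the receptor, and proteases such as PAPP-A release the ligand again. GRB10 binds the activated insulin and IGF1 receptors from inside the cell and dampens their signalling. In the vessel wall, smooth muscle cells and fibroblasts are known sources of IGF1 and of several binding proteins, and IGFBP3 and IGFBP7 are known products of cultured endothelium.

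Grb10 and Igfbp6 varied more than 50-fold among the control arrays and less within the TNF-LTBR pair, and the groups overlapped for both. The highest level of 6 of the 10 genes was on control array 2 and the next highest on TNF-LTBR array 1. Among all 10916 genes tested, 8.09% showed this order. The range of the control arrays exceeded the absolute group difference for 9 of the 10 genes, all but Igf1r, against 88.7% of all genes tested. In the test between the groups 0 of the 10 genes passed, as did 0 of all 10916 genes tested. The range over the 5 arrays was at least 2 on the log2 scale for 5 of the 10 genes, against 5.45% of all genes tested, and at least 5 for 2 of the 10, against 0.321%. The median range was 1.99 for the IGF genes and 0.56 for all genes tested. These counts are descriptions, since the genes were proposed with earlier results of the data known.

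Over all 10916 genes tested, TNF-LTBR array 1 and control array 2 differed by at least 2 on the log2 scale in 15 genes, and TNF-LTBR array 2 and control array 3 in 25 genes. Each of the other 8 pairs of arrays differed by as much in 137 to 339 genes, with 243 between the TNF-LTBR pair. The closest arrays thus carried different titles. Array medians lay between 109.9 and 120.7 intensity units, and no array repeated another. The labelled cell type was checked against its markers. Of 14 endothelial markers, 5 were bright enough to be tested. Eng, a co-receptor for TGF-beta, lay at 1562.5 and 1693.5 on TNF-LTBR arrays and at 1550.2, 1858.3 and 1811.2 on control arrays. Kdr, a VEGF receptor gene, lay at 336.9 and 255.1 on TNF-LTBR arrays and at 344.3, 364.2 and 258 on control arrays, and Plvap, Esam and Emcn were tested as well. The other 9 were too dim, among them Pecam1. Of these, Vwf, the von Willebrand factor gene, lay at 5.8 and 2.9 on TNF-LTBR arrays and at 7.2, 7.1 and 2.3 on control arrays. Cdh5, the endothelial cadherin gene, lay at 135.1 and 28.7 on TNF-LTBR arrays and at 235.6, 123.2 and 55.3 on control arrays. Tie1 stayed between 2.0 and 45.5, and Erg between 8.9 and 68.2. All 11 markers of fibroblasts and pericytes were bright enough to be tested. Their summed intensity was 82911 to 96943 on TNF-LTBR arrays and 53710 to 92775 on control arrays. In that list Col1a2, a collagen gene, lay between 17596.6 and 20691.4, and Cspg4 between 251.4 and 429.5. More endothelial markers were thus too dim for testing than bright enough, so most of them did not bear out the label. The samples are called cultures below.

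**Figure D1:**
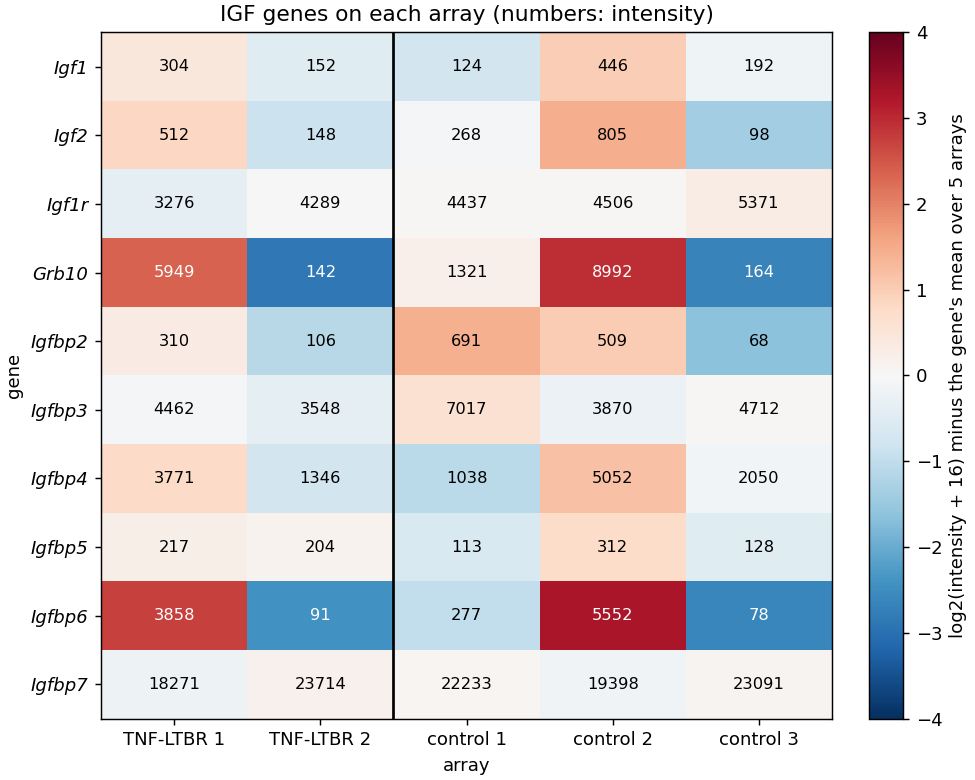
Heat map of the brightest probe set of each IGF gene (rows) on the 2 TNF-LTBR and 3 control arrays (columns). Colour is log2(intensity + 16) minus the gene's mean over the 5 arrays and the printed number is the intensity rounded to a whole unit. Grb10 and Igfbp6 are red on TNF-LTBR array 1 and control array 2 and blue on TNF-LTBR array 2 and control array 3.

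Grb10 and Igfbp6 had the widest spread on their brightest probe sets, and Igfbp5 on its dimmer one, so their promoters are shown, as RefSeq gives them on GRCm38.p6, from 250 bases before to 50 bases after a gene's start, 5′ to 3′ along the gene's strand. Capitals mark matches, on either strand, to the motif GGGCGG known as GC box, the motif TATAAA, the motif CCAAT and the NF-kB consensus.
Igfbp6, chr15:102143936-102144235, plus strand: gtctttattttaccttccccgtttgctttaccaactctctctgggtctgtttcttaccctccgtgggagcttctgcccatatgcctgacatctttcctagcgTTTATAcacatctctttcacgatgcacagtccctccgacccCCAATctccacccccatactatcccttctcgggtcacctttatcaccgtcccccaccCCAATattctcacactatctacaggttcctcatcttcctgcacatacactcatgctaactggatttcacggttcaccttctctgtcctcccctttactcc
Grb10, chr11:12037371-12037670, minus strand: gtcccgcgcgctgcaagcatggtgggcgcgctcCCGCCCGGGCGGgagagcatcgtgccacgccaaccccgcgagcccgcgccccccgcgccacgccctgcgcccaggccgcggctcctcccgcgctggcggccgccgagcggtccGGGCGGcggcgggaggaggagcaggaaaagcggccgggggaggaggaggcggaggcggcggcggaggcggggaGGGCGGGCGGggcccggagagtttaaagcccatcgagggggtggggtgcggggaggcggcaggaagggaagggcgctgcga
Grb10, chr11:12027922-12028221, minus strand: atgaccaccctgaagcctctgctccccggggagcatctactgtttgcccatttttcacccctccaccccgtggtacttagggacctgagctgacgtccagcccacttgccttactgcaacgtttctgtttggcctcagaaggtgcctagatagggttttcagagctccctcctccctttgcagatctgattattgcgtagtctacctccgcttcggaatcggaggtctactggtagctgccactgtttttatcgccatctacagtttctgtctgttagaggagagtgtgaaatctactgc
Igfbp5, chr1:72874816-72875115, minus strand: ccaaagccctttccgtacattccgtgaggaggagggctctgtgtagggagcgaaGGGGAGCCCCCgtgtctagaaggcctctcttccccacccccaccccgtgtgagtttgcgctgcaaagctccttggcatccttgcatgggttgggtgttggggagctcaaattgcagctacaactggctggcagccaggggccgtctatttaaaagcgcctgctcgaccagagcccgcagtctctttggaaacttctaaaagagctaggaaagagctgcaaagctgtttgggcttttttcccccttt

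The promoters of genes with like array profiles differed in their letters. The Igfbp6 window held 8 CG dinucleotides, 1 TATAAA match on the reverse strand and 2 CCAAT matches. The upstream Grb10 window held 45 CG dinucleotides and 5 GGGCGG matches, and the downstream Grb10 window held 9 CG dinucleotides and none of the 4 motifs. The median over all 32851 promoters was 7 CG dinucleotides. The NF-kB consensus matched 1 of the 15 windows of the 10 genes, that of Igfbp5, at 2 positions that overlap by all but a single base, and it matched 8.5% of all promoters. GGGCGG matched 6 of the 15 windows against 35.7% of all promoters, TATAAA 2 against 13.6%, and CCAAT 3 against 37.4%. A match is a run of letters and not a shown site.

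Of the ligands, Igf2 encodes a fetal growth factor expressed from the paternal allele. Its brightest probe set read 511.6 and 148.1 on TNF-LTBR arrays 1 and 2, and 268.2, 804.6 and 97.6 on control arrays 1 to 3. Control array 2 and TNF-LTBR array 1 were the highest and control array 3 the lowest, so the groups overlapped. On the scale log2(intensity + 16), used for all differences here, Igf2 averaged 8.20 ± 1.19 in TNF-LTBR (SD, n = 2) and 8.22 ± 1.43 in control (SD, n = 3). The difference of TNF-LTBR minus control was -0.02, with a 95% interval of -2.42 to 2.38 from limma, and it was 0.71 without control array 2 and 0.82 without TNF-LTBR array 2. The other Igf2 probe set stayed between 19.8 and 78.6, under the brightness needed for testing.

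Igf1, the ligand that mediates much of growth hormone action, had 4 probe sets. The brightest by mean log2 value read 304 and 152.3 on TNF-LTBR arrays 1 and 2, and 124, 446 and 191.7 on control arrays 1 to 3. A further probe set, 1434413_at, read 361.2 and 79.3 on TNF-LTBR arrays, and 96.4, 831 and 94.7 on control arrays. All 4 had control array 2 highest and TNF-LTBR array 1 next. The brightest averaged 7.86 ± 0.66 in TNF-LTBR (SD, n = 2) and 7.89 ± 0.88 in control (SD, n = 3), a difference of -0.03 (95% interval -1.52 to 1.45). Across its 3 dimmer probe sets the difference ran from -0.59 to -0.12. For the brightest, it was 0.44 without control array 2, 0.43 without TNF-LTBR array 2 and -0.50 without TNF-LTBR array 1.

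Igf1r ranged over 0.71 log2 units, and its groups did not overlap. Its brightest probe set read 3275.6 and 4288.7 on TNF-LTBR arrays, against 4437.1, 4505.8 and 5370.8 on control arrays. All TNF-LTBR values lay under all control values, by a gap that was small beside the spread of the TNF-LTBR pair. The mean was 11.88 ± 0.27 in TNF-LTBR (SD, n = 2) and 12.22 ± 0.15 in control (SD, n = 3), a difference of -0.34 (95% interval -0.78 to 0.09, 0.789-fold). It did not pass the test (limma, adjusted p = 0.999, unadjusted p = 0.101). Of the 10 IGF genes, 1 was lower without overlap, near the 6.34% of all genes tested, and 0 were higher without overlap, against 6.94%. The other 4 Igf1r probe sets overlapped between the groups, with differences of -0.24 to 0.03.

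Grb10, an imprinted gene for an adaptor that restrains insulin and IGF1 receptors, had the brightest of its 3 probe sets at 5948.7 and 141.7 on TNF-LTBR arrays 1 and 2. On control arrays 1 to 3 it read 1321.1, 8991.6 and 164.1. Control array 2 and TNF-LTBR array 1 were high, control array 1 was between, and control array 3 and TNF-LTBR array 2 were low. The highest control value was 50.01-fold the lowest, and the TNF-LTBR pair differed 37.8-fold, both on (intensity + 16). The other 2 Grb10 probe sets had the same order of arrays, with 13.6-fold and 4.96-fold between the highest and lowest array.

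The Grb10 mean was 9.92 ± 3.71 in TNF-LTBR (SD, n = 2) and 10.34 ± 2.82 in control (SD, n = 3), and the difference was -0.42 (95% interval -5.92 to 5.08). Single arrays set its sign: the difference was -3.04 without TNF-LTBR array 1, 2.20 without TNF-LTBR array 2, 0.98 without control array 2 and -1.84 without control array 3. Profiles centred on their own mean were compared by root mean square distance over the 5 arrays. Ctla2a, Folh1 and Rgs16 were the tested genes nearest to Grb10, at 0.20, 0.22 and 0.39 log2 units. Ctla2a lay at 13.39 and 7.64 on TNF-LTBR arrays 1 and 2, and at 11.27, 13.92 and 8.16 on control arrays 1 to 3, in log2(intensity + 16). Over 5 arrays such nearness is a description only.

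**Figure D2:**
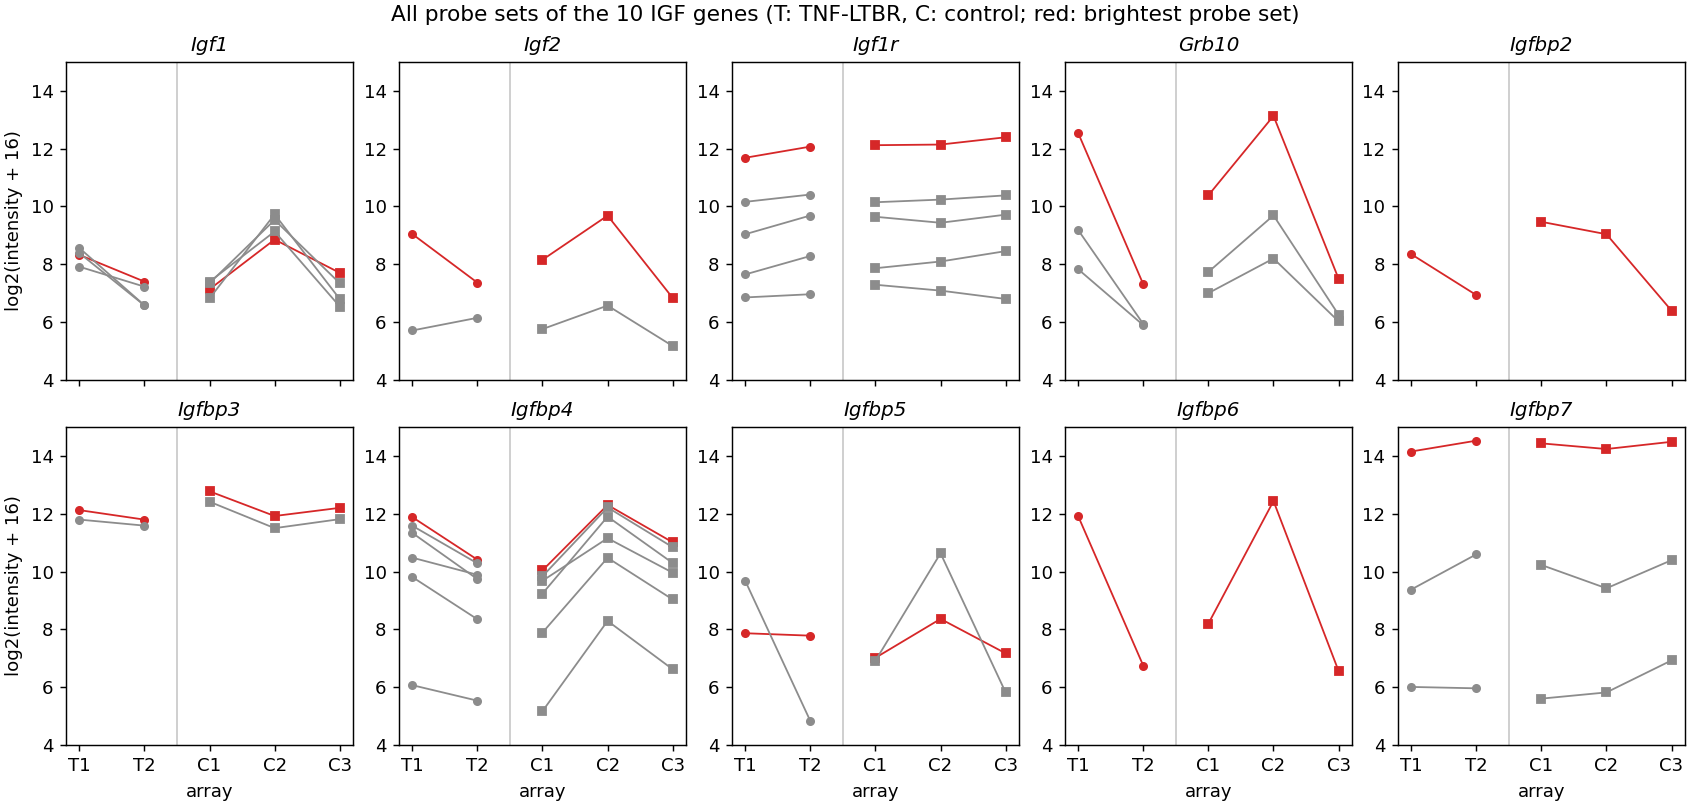
All 29 probe sets of the 10 IGF genes, 1 panel a gene, with log2(intensity + 16) on the vertical axis and the arrays on the horizontal axis (T1 and T2: TNF-LTBR; C1 to C3: control). Each line joins the values of 1 probe set within a group, red for the brightest. The peak at C2 and the drop at T2 recur on all Grb10 and Igfbp4 probe sets, while the Igf1r and Igfbp3 lines are nearly flat.

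Among the binding proteins, Igfbp6 had the widest spread. It encodes a binding protein that prefers IGF2 over IGF1, and its single probe set read 3857.9 and 90.8 on TNF-LTBR arrays 1 and 2. On control arrays 1 to 3 it read 277.4, 5552.1 and 77.9. The order was that of Igf2, with control array 2 and TNF-LTBR array 1 high, and the highest array was 59.3-fold the lowest on (intensity + 16). The mean was 9.33 ± 3.66 in TNF-LTBR (SD, n = 2) and 9.06 ± 3.04 in control (SD, n = 3), a difference of 0.26 (95% interval -5.44 to 5.97). It was -2.33 without TNF-LTBR array 1, 2.86 without TNF-LTBR array 2, -0.17 without control array 1, 1.95 without control array 2 and -0.99 without control array 3. The nearest profiles were those of Cpxm1, Serpinf1, which encodes the secreted factor PEDF, and Ms4a4d, at 0.29, 0.35 and 0.45 log2 units.

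Igfbp4, which encodes a binding protein known mainly to inhibit IGF action until PAPP-A cleaves it, had 6 probe sets. The brightest read 3771 and 1346.3 on TNF-LTBR arrays, and 1037.5, 5051.8 and 2050.2 on control arrays. Control array 2 was again highest and TNF-LTBR array 1 next, but control array 3 lay above TNF-LTBR array 2 and control array 1. The mean was 11.15 ± 1.04 in TNF-LTBR (SD, n = 2) and 11.12 ± 1.14 in control (SD, n = 3), a difference of 0.03 (95% interval -1.92 to 1.98). Across its 5 dimmer probe sets the difference ran from -0.89 to 0.06. For the brightest one, the sign turned without control array 1 (-0.51), control array 3 (-0.025) and TNF-LTBR array 1 (-0.71). Vsir, Abi3bp and Dpep1 had the nearest profiles, at 0.10, 0.11 and 0.13 log2 units.

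Igfbp5, whose product binds to extracellular matrix as well as to the ligands, had 2 probe sets that disagreed in size. The brighter by mean log2 value, 1422313_a_at, read 216.8 and 203.6 on TNF-LTBR arrays, and 113, 312.5 and 127.6 on control arrays. The other, 1452114_s_at, read 804.8 and 12.3 on TNF-LTBR arrays, and 104.2, 1573.7 and 40.1 on control arrays. Within the TNF-LTBR pair, 1422313_a_at was nearly level, while 1452114_s_at differed 29.0-fold on (intensity + 16). On 1422313_a_at the mean was 7.82 ± 0.06 in TNF-LTBR (SD, n = 2) and 7.51 ± 0.74 in control (SD, n = 3). The differences were 0.31 (95% interval -0.84 to 1.46) on 1422313_a_at and -0.53 on 1452114_s_at, so the sign depends on the probe set. What each probe set matches was not examined.

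Igfbp2 followed another order. It encodes a binding protein abundant in fetal tissue, and its single probe set read 309.6 and 105.9 on TNF-LTBR arrays, and 691.2, 508.8 and 67.7 on control arrays. Control arrays 1 and 2 were the highest and control array 3 the lowest of all. The mean was 7.64 ± 1.00 in TNF-LTBR (SD, n = 2) and 8.30 ± 1.67 in control (SD, n = 3), a difference of -0.66 (95% interval -3.28 to 1.96). The difference was -1.61 without control array 3 and 0.051 without TNF-LTBR array 2. Igfbp2 and Igfbp5 are next to each other among the protein-coding genes of chromosome 1 in the RefSeq annotation. Control array 1, where Igfbp2 was highest, was the lowest for Igfbp5 on 1422313_a_at. It was not the lowest on 1452114_s_at, at 104.2 against 40.1 on control array 3 and 12.3 on TNF-LTBR array 2. Cox6b2, Alcam and Bdnf had the profiles nearest to Igfbp2, at 0.18, 0.29 and 0.30 log2 units, and Rftn1, Nsg1 and Cadm4 those nearest to Igf2, at 0.17, 0.18 and 0.20.

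Igfbp3, the main carrier of IGF1 in blood, was bright on every array and varied less than 2-fold. It read 4461.7 and 3547.6 on TNF-LTBR arrays, and 7017.2, 3870.3 and 4712.5 on control arrays. Control array 1 stood highest, and the others lay closer together, with TNF-LTBR array 2 lowest. On the other probe set, 1458268_s_at, control array 2 was lowest, at 2886.9 against 3068.9 on TNF-LTBR array 2. The mean was 11.96 ± 0.23 in TNF-LTBR (SD, n = 2) and 12.30 ± 0.44 in control (SD, n = 3), a difference of -0.34 (95% interval -1.05 to 0.37, 0.790-fold). The other probe set differed by -0.22, and without control array 1 the difference on the brightest was -0.10. Igfbp1, its neighbour on chromosome 11, stayed between 8.6 and 54.5 on its brightest probe set and was not tested.

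Igfbp7 encodes a binding-protein relative with low affinity for the ligands that is known from vascular basement membrane. Its brightest probe set was near the top of the scale, at 18271.1 and 23714 on TNF-LTBR arrays and 22232.6, 19398.5 and 23091.1 on control arrays, where the highest intensity of any probe set on an array was 23886.4 to 26914.6. A dimmer probe set, 1423585_at, read 647.8 and 1530.9 on TNF-LTBR arrays, and 1183.7, 668.9 and 1329.7 on control arrays. Both had TNF-LTBR array 2 highest, and both were lowest on TNF-LTBR array 1 and control array 2, the high arrays of Grb10 and Igfbp6. The spread was 1.30-fold on the brightest and 2.33-fold on 1423585_at. The brightest averaged 14.35 ± 0.27 in TNF-LTBR (SD, n = 2) and 14.39 ± 0.13 in control (SD, n = 3), a difference of -0.05 (95% interval -0.43 to 0.33), and 1423585_at differed by -0.03. The difference on the brightest was 0.14 without TNF-LTBR array 1 and 0.0033 without control array 3. The last Igfbp7 probe set stayed between 32.4 and 105.3 and was not tested.

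**Figure D3:**
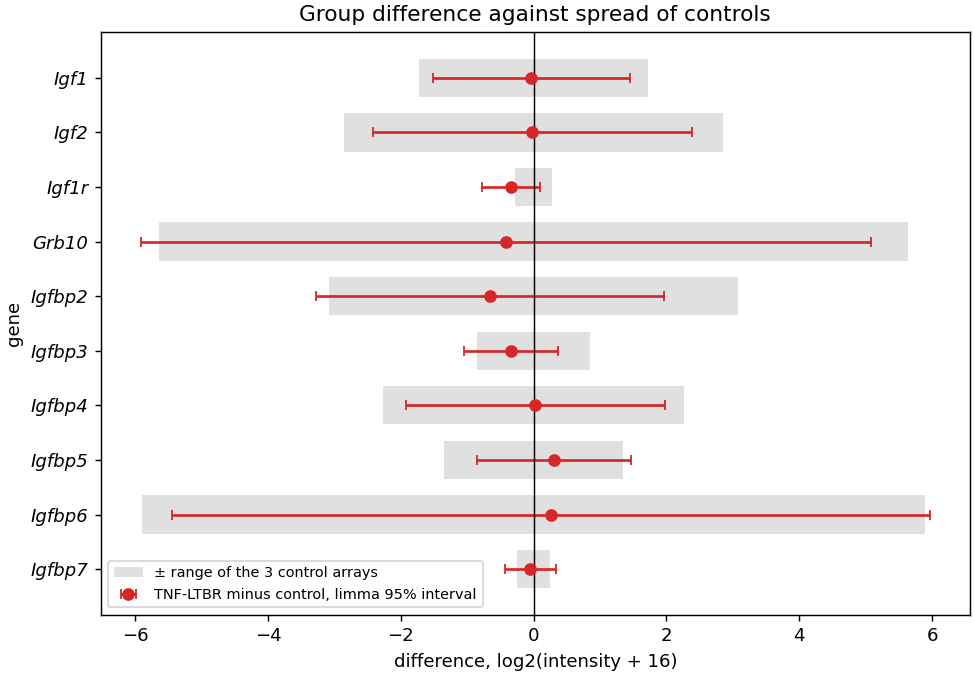
Difference of TNF-LTBR minus control for each IGF gene (points) with the 95% interval from limma (bars), on the log2(intensity + 16) scale. Grey boxes reach from minus to plus the range of the 3 control arrays. Only the Igf1r point, at -0.34, lies outside its grey box.

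Over the 10 IGF genes, all bright enough to be tested, 3 were higher and 7 lower in TNF-LTBR. The median difference was -0.04, against -0.0035 over all genes tested, of which 50.7% were lower. Without control array 2 it was 0.53, without TNF-LTBR array 2 it was 0.39, and without TNF-LTBR array 1 it was -0.61. By limma 0 of the 10 passed an adjusted p of 0.05 (all at 0.999), and 0 had an unadjusted p under 0.05. Among all genes tested the same fit called 0% higher and 0% lower, and 192 genes, 1.76%, had an unadjusted p under 0.05. As single probe sets, 26 of the 29 were bright enough to be tested and 0 passed. The range of the control arrays exceeded the absolute group difference for 9 of the 10 genes, against 88.7% of all genes tested, which is about the same share. An interval as wide as that of Grb10 or Igfbp6 does not show that the groups were alike.

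The wider pathway was counted on gene lists. Of 20 tested adaptors and kinases downstream of the receptor, 0 passed in either direction (limma, smallest unadjusted p = 0.127), with 3 higher and 17 lower and a median difference of -0.14, where 50.7% of all genes tested were lower. The groups did not overlap for 3 of them, all lower, against 6.34% of all genes tested: Pik3r2, a regulatory subunit of PI3K, at -0.16, Gsk3b, a kinase inhibited by AKT, at -0.12, and Pdpk1, which activates AKT, at -0.11. The dimmer probe sets of Gsk3b differed by -0.46 to 0.09. Of 3 tested receptors and carriers 0 passed, and only Insr, the insulin receptor gene, lay without overlap, against 6.34% of all genes tested that did so on the lower side. It read 812.6 and 922.8 on TNF-LTBR arrays, against 924.8, 994.5 and 1462.7 on control arrays, a difference of -0.34, while its 2 dimmer probe sets differed by 0.02 and 0.20. Insr and Igf1r thus had the same sign and nearly the same size on their brightest probe sets, and neither passed. Of 5 tested CCN genes, relatives of the binding proteins, 0 passed, with 1 higher and 4 lower, and the 1 tested gene for an IGF mRNA-binding protein, Igf2bp3, differed by -0.04.

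Of 10 tested imprinted genes, many of them known to be expressed together with Igf2 in growing tissue, 0 passed in limma, with 2 higher and 8 lower and a median difference of -0.25, where 50.7% of all genes tested were lower. The groups did not overlap for 2 of them, both lower, against 6.34% of all genes tested. Plagl1, which encodes a zinc finger factor known to regulate Igf2, read 237.5 and 434.2 on TNF-LTBR arrays, against 654.8, 910 and 1004.3 on control arrays. All TNF-LTBR values lay under all control values, and the difference was -1.35 (95% interval -2.16 to -0.53; unadjusted p = 0.00782 and adjusted p = 0.999 in limma). Its 2 dimmer probe sets differed by -0.70 and -0.21. Dlk1, for a Notch-like membrane protein, read 155.8 and 74.6 on TNF-LTBR arrays, against 647, 181.8 and 165.2 on control arrays, a difference of -1.20 (95% interval -2.90 to 0.49). The dimmer Dlk1 probe set went the other way, at 0.61. Igf2 itself differed by -0.02, as given above.

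Of 9 tested proteases and inhibitors 0 passed, with 5 higher and 4 lower, and all 9 overlapped between the titles. Only Pappa, Pappa2 and Plat, the tissue plasminogen activator gene, ranged over at least 2 log2 units. Pappa, Pappa2, Plat and Htra1 are named here after their values were seen. Pappa2 read 132.5 and 4844.8 on TNF-LTBR arrays 1 and 2, and 255.5, 100.8 and 4832.5 on control arrays 1 to 3. TNF-LTBR array 2 and control array 3, the low arrays of Grb10 and Igfbp6, were thus the high arrays of Pappa2. Htra1, a secreted protease that can cleave binding proteins, had the same high arrays, at 3809.5 and 10634.5 in TNF-LTBR and 4557.3, 4626.1 and 11125.3 in control. Pappa, which cleaves IGFBP4, read 271.2 and 91.6 in TNF-LTBR, and 970.4, 1321.5 and 197.6 in control, a difference of -1.90 with overlap (limma, unadjusted p = 0.0871). Its dimmer probe sets differed by -0.67 and 0.0015.

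Markers of other cell types moved across the same arrays. The summed intensity of 9 macrophage markers, 6 of them bright enough to be tested, was 9272 and 3139 on TNF-LTBR arrays 1 and 2, and 4196, 8233 and 2774 on control arrays 1 to 3. Ptprc, which encodes the pan-leukocyte antigen CD45, stayed between 12.3 and 75.2. Lyz2, a lysozyme gene of macrophages, read 3933.6 and 66.5 in TNF-LTBR, and 1088.5, 3409.2 and 186.3 in control. Lyz2 thus shared its 2 high and 2 low arrays with Grb10 and Igfbp6, as did Cd68 and Csf1r, while Adgre1 shared only the low arrays. Cd53 and Cd14 shared only the high arrays. Cd53 read 2533.8 and 1659.1 in TNF-LTBR, and 1110.3, 2126.1 and 1104 in control. Cd14 read 831.6 and 797.8 in TNF-LTBR, and 600.2, 1081.1 and 828.8 in control.

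Single genes of the fibroblast list went in opposite directions. Thy1, a surface protein of fibroblasts, read 8871.2 and 127.9 in TNF-LTBR, and 2583.1, 12215.1 and 154.6 in control. Lum, a matrix proteoglycan gene of fibroblasts, ran the other way, at 1103.8 and 12933.2 in TNF-LTBR and 1145.4, 818 and 12967.3 in control. Of the 4 lymphatic markers 2 were bright enough to be tested, and the list summed to 11494 and 515 in TNF-LTBR and 1451, 8233 and 435 in control. Pdpn, the podoplanin gene, read 11151.8 and 328.4 in TNF-LTBR and 1198.8, 7962.8 and 220.7 in control. Prox1, the defining lymphatic factor, stayed between 5.8 and 46.9.

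Of the tested endothelial markers, Kdr, Esam and Emcn had the low arrays of Grb10 too, while Eng and Plvap did not. Of the tested smooth muscle markers, Acta2 and Tagln had them, while Smtn, Tpm2, Mylk, Lmod1, Synpo2 and Des did not. Plvap was highest on TNF-LTBR array 2, at 759.3. The smooth muscle gene Smtn read 967.7 and 1505.9 in TNF-LTBR, and 2969.4, 1079.6 and 1577 in control. Lmod1, of the same list, read 76.8 and 242.2 in TNF-LTBR, and 478, 123 and 269.9 in control. Smtn and Lmod1 were thus lowest on TNF-LTBR array 1 and control array 2. Emcn read 477.3 and 78.4 in TNF-LTBR, and 220.9, 660.8 and 81.4 in control, and Tagln, an actin-binding protein gene of smooth muscle, read 1315.1 and 19.4 in TNF-LTBR, and 3307.9, 2335.1 and 72.1 in control. The sum of 14 endothelial markers was 3884 and 3176 in TNF-LTBR, and 3940, 4371 and 3153 in control. The sum of 10 smooth muscle markers, 8 tested, was 14458 and 12259 in TNF-LTBR, and 28018, 20791 and 12560 in control, with Myh11 at 4.6 to 41.3. Of 7 mesothelial markers 3 were tested, with sums of 1425 and 1519 in TNF-LTBR and 1389, 1028 and 1589 in control. Of 5 measured adipocyte markers 2 were tested, with sums of 5277 and 7770 in TNF-LTBR and 12714, 5410 and 5462 in control. Of all markers tested, 5 lay without overlap, where 6.94% of all genes tested were higher and 6.34% lower in this way. They were 1 of 5 tested endothelial markers and 1 of 11 of fibroblasts and pericytes, both higher. Of 8 tested smooth muscle markers, 2 were higher and 1 lower. The macrophage, mesothelial, adipocyte and lymphatic lists had 0. Higher in TNF-LTBR were Pdgfra, Plvap, Synpo2 and Des, and lower was Tpm2. Pdgfra, a receptor gene of fibroblasts, read 9001.8 and 6880.8 in TNF-LTBR, and 2110.1, 5847.9 and 5646.9 in control. No marker was at 0. The part of these markers in the IGF values was not tested, and in RNA of a whole culture fewer cells of a type cannot be told apart from less RNA per cell.

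**Figure D4:**
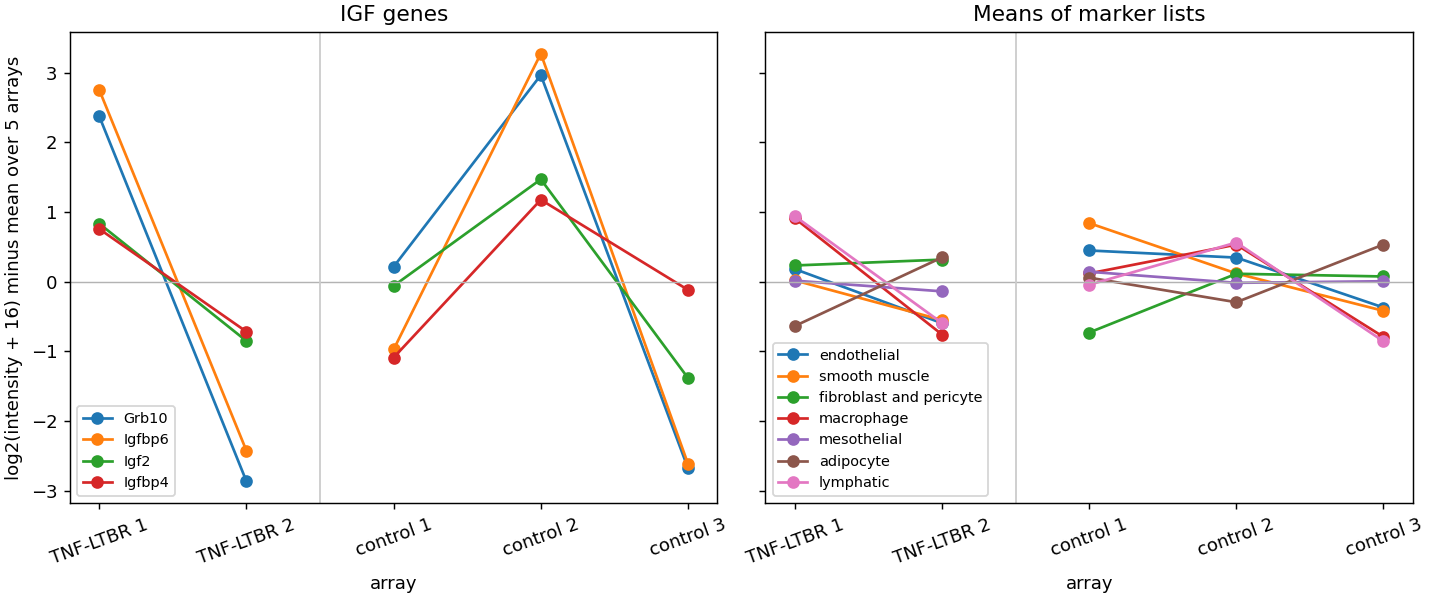
Levels on each array minus the mean over the 5 arrays, in log2(intensity + 16), for 4 IGF genes (left) and for the means of 7 marker lists (right). The 4 genes all had control array 2 highest and TNF-LTBR array 1 next. Igfbp2, which ranged over 3.08 and had control array 1 highest, is not drawn. Lines join arrays of a group. Grb10 and Igfbp6 span 5.84 and 5.89 log2 units, and the macrophage and lymphatic means share their high arrays, TNF-LTBR 1 and control 2. Within the lymphatic list Pdpn and Flt4 had these high arrays, while Prox1 and Lyve1 did not.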

How the data were processed

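Expression was measured on 5 one-colour arrays with biotin-labelled RNA. The deposited values were linear array intensities, 1 per probe set and array, and per the submitters' processing notes GCOS version 1.4 was used. How probes were summarised and scaled is not stated there. Gene symbols came from the platform annotation: 1 symbol was listed for 34958 probe sets, several for 932 and none for 9211. A single-symbol probe set was found for 129 of the 136 genes on the lists.

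Intensities were used as deposited and transformed as log2(intensity + 16), which understates changes of dim genes. Each gene was represented by the probe set with the highest mean, and the 60% of genes with the highest mean, at least 7.17 on that scale, were tested. The test was limma 3.58.1 under R 4.3.3 (intensity trend, two-sided, Benjamini-Hochberg over 10916 genes, threshold 0.05, 3 residual degrees of freedom), checked on simulated data. In the simulated data every gene had the same spread and arrays varied independently. The check therefore does not cover the unequal spreads or the likeness of arrays across titles seen here. With 2 against 3 arrays the smallest p of an exact permutation test is 0.1. Arrays were grouped by title. The number of arrays limits the precision. Intensities of different probe sets are not on a common scale, so summed intensities of a list only describe the arrays.

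The 10 genes and all lists were chosen with earlier results of these data known. Named were the 10 genes, genes of the pathway lists past the threshold or, up to 3 a list, with the largest difference without overlap, the 3 nearest profiles of genes ranging over at least 2, and markers. Igfbp1, Igf2bp3, Pappa, Pappa2, Plat and Htra1 were named after their values were seen. Alternatives were other pseudocounts, filters, normalizations, probe set summaries, no trend, the replicate block and each array left out.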

Additional observations from a re-analysis of the deposited data

How the results depend on the processing

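The count of genes past the threshold was 0 under all 15 alternatives. For the 10 IGF genes, no alternative brought a gene past the threshold (limma, adjusted p 0.944 to 1.000), and other pseudocounts (1 and 64), no filter, other normalizations and no trend kept the sign of all 10. Under the stricter filter 6 of the 10 were tested and kept their sign, with a median of -0.19, while Igf1, Igf2, Igfbp2 and Igfbp5 fell below it. With the mean of a gene's probe sets the difference was 0.038 for Igf2, -0.16 for Igfbp4 and -0.11 for Igfbp5, each opposite to the brightest probe set. The replicate block, which takes the unpaired control array 3 out of the comparison and so gives the values without it, turned Igfbp4 (-0.025), Igfbp6 (-0.99) and Igfbp7 (0.0033), and moved Grb10 to -1.84, with 0 calls. The labels give no shared source for equal numbers. Deviations from group means, over genes, correlated at 0.13 and -0.80 for equal-numbered arrays 1 and 2. Centring a pair makes its deviations mirror images, so these values are linked and cannot decide whether equal numbers shared a source.

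Leaving out each array moved the difference between -0.50 and 0.44 for Igf1, -0.86 and 0.82 for Igf2, -1.61 and 0.051 for Igfbp2, -0.71 and 0.77 for Igfbp4, -2.33 and 2.86 for Igfbp6, -0.24 and 0.14 for Igfbp7, and -3.04 and 2.20 for Grb10. Igf1r (-0.53 to -0.15), Igfbp3 (-0.53 to -0.10) and Igfbp5 (0.06 to 0.73) kept their sign. With an array of TNF-LTBR left out, the lone array is assumed to vary like the others. The median over the 10 genes ran from -0.61 to 0.53. Dimness limits Igf1, Igf2, Igfbp2 and Igfbp5, which fell below the stricter filter. Igf2, Igfbp4 and Igfbp7 each had a further probe set under the brightness tested.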
